A study of Homo sapiens with 16 samples.

Results

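The genes described here are the collagen chains, the laminin chains and the integrin subunits, which together make the fibrous and sheet-like matrix around cells and the receptors that hold cells to it. They are the protein-coding genes of the deposited table whose GENCODE symbol is that of a numbered collagen alpha chain (COL), a laminin alpha, beta or gamma chain (LAMA, LAMB or LAMC) or an integrin subunit (ITGA or ITGB). The rule found 77 genes of 28951: 40 collagens, 12 laminins, 17 integrin alpha subunits and 8 integrin beta subunits. Of the 77, 70 had enough reads to be tested. The 7 not tested were COL14A1, COL19A1, COL20A1, COL22A1, COL23A1, COL25A1 and ITGAL. A further 5 genes that fit the rule in GENCODE 29, COL11A1, COL1A2, COL6A5, COL9A1 and ITGA8, are not analysed here.

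RNA was measured in 16 libraries of 4 established lines of non-small cell lung cancer, all human. Each line received either MYCi975 at 5 µM together with TMP195 at 25 µM, called the combination here, or DMSO as vehicle. MYCi975 inhibits the transcription factor MYC and TMP195 inhibits class IIa histone deacetylases. Treatment began 1 day after plating and lasted 48 h, in RPMI with 10% fetal bovine serum, and each line and treatment has 2 libraries. In the study's design the responsive lines are H460 and H1703, and the non-responsive lines are H441 and HCC827. The groups are therefore the combination and the vehicle in H460, H1703, HCC827 and H441. The cells were plated cultures of established lines, and the labels do not say whether each library is a culture of its own. The p-values then measure the spread between these libraries, which may be technical. Libraries treated with 1 agent alone are not analysed here, so no change below can be assigned to either agent.

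As background, collagens are triple helices of 3 chains. Fibrillar collagens (COL1A1, COL3A1, the COL5 chains) form fibres, and collagen IV forms the network of basement membranes. Laminins are trimers of 1 alpha, 1 beta and 1 gamma chain that polymerise in basement membranes. LAMA3 and LAMB3 belong to the laminin under stratified and glandular epithelium. Integrins pair 1 alpha with 1 beta subunit: those with ITGA3 or ITGA6 bind laminins, those with ITGA1 or ITGA2 bind collagens, and ITGA5 and ITGAV pair with beta subunits to bind fibronectin, vitronectin and related ligands. ITGA6 with ITGB4 anchors epithelial cells through hemidesmosomes. In the lung, some of these genes differ between epithelial and mesenchymal cells, and tumour cells of either kind use integrins and matrix to attach and migrate.

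The RefSeq promoter table (GRCh38.p14) held windows for 55 of the 77 members, 73 windows in all, and the 250 bases before each start site were searched on both strands. ITGA3, ITGB4, COL5A2 and LAMA1 were not among them. Upstream sequences are printed for genes whose changes are central below: the epithelial laminin chains LAMA3 and LAMB3, and collagen IV genes that lie head to head. Capitals mark matches to TGANTCA (the AP-1 motif), GGGCGG (the GC box), CCAAT and their reverse complements. The LAMA3 window is chr18:23872770-23873019 on the plus strand, the LAMB3 window is chr1:209651375-209651624 on the minus strand and belongs to 1 of its 3 listed start sites, and both lie inside the gene's annotated span. The COL4A1/COL4A2 sequence is the whole interval between the start sites of the 2 genes, chr13:110307158-110307283, given on the plus strand, and the COL4A5 window is chrX:108439588-108439837 on the plus strand.
LAMA3: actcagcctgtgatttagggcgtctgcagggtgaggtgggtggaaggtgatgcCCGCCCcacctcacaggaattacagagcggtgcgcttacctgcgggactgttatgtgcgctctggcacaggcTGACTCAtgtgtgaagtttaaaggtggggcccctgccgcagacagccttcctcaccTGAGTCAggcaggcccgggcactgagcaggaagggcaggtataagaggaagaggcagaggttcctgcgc
LAMB3: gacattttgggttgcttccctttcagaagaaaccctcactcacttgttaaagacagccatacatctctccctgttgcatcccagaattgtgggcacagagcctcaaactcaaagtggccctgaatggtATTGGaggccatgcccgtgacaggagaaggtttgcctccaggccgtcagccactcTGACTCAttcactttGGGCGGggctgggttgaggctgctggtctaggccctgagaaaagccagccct
COL4A1/COL4A2: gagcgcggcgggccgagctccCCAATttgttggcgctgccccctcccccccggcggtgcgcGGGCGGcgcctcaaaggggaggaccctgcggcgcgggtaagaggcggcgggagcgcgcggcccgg
COL4A5: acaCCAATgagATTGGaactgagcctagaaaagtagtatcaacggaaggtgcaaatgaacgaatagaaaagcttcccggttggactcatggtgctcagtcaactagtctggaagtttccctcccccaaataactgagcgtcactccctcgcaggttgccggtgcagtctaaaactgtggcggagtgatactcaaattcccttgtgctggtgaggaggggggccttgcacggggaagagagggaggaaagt

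The AP-1 letters were in windows of 3 members: LAMA3 and COL10A1 with 2 matches each and LAMB3 with 1 match. That is 4.11% of the 73 member windows, against 6.57% of all 35116 windows. The LAMB3 match lies in the window printed above, and the windows of its other listed start sites had 0 AP-1 matches. The GC box was in 53.4% of member windows and 42.6% of all windows, and CCAAT in 20.5% of member windows and 32.0% of all windows. TATAAA was in 13.7% of member windows and 10.7% of all windows, and CACGTG, an E-box, in 1.37% of member windows and 6.34% of all windows. The start sites of COL4A1 and COL4A2 lie 126 bases apart, those of COL4A6 and COL4A5 379 bases apart and those of COL4A4 and COL4A3 418 bases apart, each pair pointing away from each other. A match is a run of letters and says nothing of binding.

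The depth was 8493271 to 13604150 reads per library in the listed genes, and the 2 libraries of a group correlated at 0.976 to 0.985 across genes. Levels are given as normalised reads, which are reads divided by the library's size factor, and levels of different genes are compared only per kb of annotated exon. Changes are log2, combination minus vehicle, with the standard error (SE) of 1 limma fit over 23968 genes, and a gene is called when its Benjamini-Hochberg adjusted p over all those genes is under 0.05. The 7 epithelial markers summed to 230 to 236 normalised reads in H1703 with the combination and 263 with vehicle, against at least 27800 in each library of the other lines. In H460 these 7 markers summed to 31571 to 36475 with the combination and 27800 to 28738 with vehicle. Of the 7, only CDH1 was at 0 in both H460 combination libraries. The 5 markers of a mesenchymal state summed to 14930 to 20900 in H460 with the combination and 8356 to 9477 with vehicle, and to 16954 to 18356 in H1703 with the combination and 10532 to 11581 with vehicle. In HCC827 they summed to 5201 to 5336 with the combination and 5445 to 5846 with vehicle, and to 113 to 203 in H441 with the combination and 118 to 130 with vehicle. In H1703, 4 of the 6 fibroblast markers summed to 170 to 173 with the combination and 916 to 975 with vehicle, with LUM at 0 in all 4 libraries. The 4 alveolar markers measured summed to 463 to 567 in HCC827 with the combination and 1129 to 1173 with vehicle, and to 1692 to 1882 in H441 with the combination and 3160 to 3236 with vehicle. In HCC827 the epithelial markers summed to 30106 to 30627 with the combination and 38345 to 40379 with vehicle. In H1703 the 2 squamous and basal markers measured summed to 21.8 to 22.9 with the combination and 179 to 200 with vehicle, and in H441 the 4 endothelial markers measured summed to 245 to 347 with the combination and 470 to 518 with vehicle. The part of these differences in the results below was not tested. In bulk libraries, fewer cells of a kind and less RNA per cell cannot be told apart.

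Without drug, ITGB1, the beta subunit shared by the collagen and laminin receptors, and LAMC1, the gamma chain of most laminins, were among the 4 highest members per kb in every line. In vehicle, ITGB1 stood at 972 normalised reads per kb in H460, 1736 in H1703, 837 in H441 and 2721 in HCC827. LAMC1 stood at 1502 in H460, 542 in H1703, 657 in H441 and 747 in HCC827. The other leading genes differed between the lines.

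COL5A2, a chain of the fibrillar collagen V, was high in both responsive lines. It had 13097 and 12282 normalised reads in H460 vehicle libraries and 9733 and 8954 in H1703 vehicle libraries, against 17.0 and 12.2 in HCC827 and 5.52 and 9.77 in H441 vehicle libraries. All 4 responsive libraries lay far above all 4 non-responsive ones, with a difference of 9.70 ± 0.13 (SE) and an adjusted p of 2.52e-21. Each class is a pair of lines. The SE and p of the class comparisons measure the spread between libraries, not between lines. Over all tested genes, 28.8% were called higher in the responsive lines in vehicle. Per kb it was the highest member in H460, at 1702.6, and the second in H1703, at 1254.

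The epithelial laminin chains LAMB3 and LAMA3 showed the reverse. LAMB3 had 123 and 114 normalised reads in H460 vehicle libraries and 4.87 and 2.8 in H1703 vehicle libraries, against 1064 and 937 in HCC827 and 3283 and 3135 in H441. LAMA3 had 111 and 107 in H460 and 35.1 and 32.2 in H1703, against 3035 and 3063 in HCC827 and 2434 and 2138 in H441. For both chains all responsive libraries lay below all non-responsive ones. The class difference was -6.03 ± 0.16 for LAMB3 (adjusted p 7.17e-15) and -5.37 ± 0.07 for LAMA3 (adjusted p 2.52e-21). Per kb, LAMB3 was in place 3 of the members in H441, at 685. ITGA3, the alpha subunit that binds this laminin, was likewise low in H460, with 111 and 123 normalised reads in vehicle, against 1789 and 1939 in H1703, 5432 and 5279 in HCC827 and 6036 and 6110.1 in H441. It stood at 546 per kb in HCC827, place 3 of the members there.

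**Figure D1:**
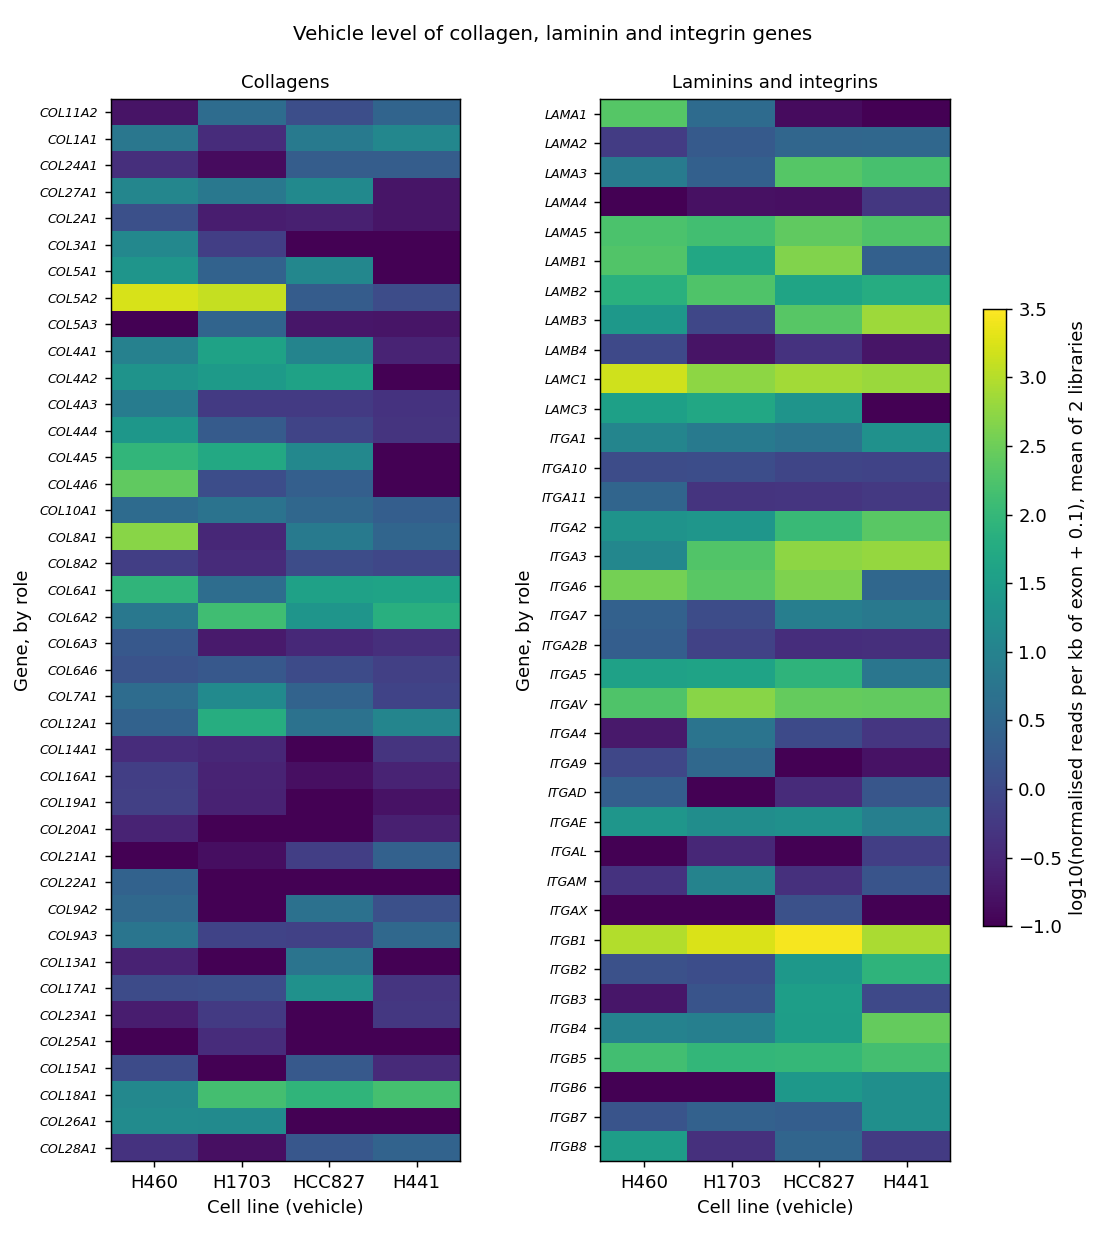
Mean vehicle level of each member reported here (rows, grouped by role) in H460, H1703, HCC827 and H441 (columns), as log10 of normalised reads per kb of exon plus 0.1, over 2 libraries. COL5A2 is bright in H460 and H1703 only, LAMB3 and LAMA3 are brighter in HCC827 and H441, and ITGB1 and LAMC1 are bright in all 4 lines.

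Across the 70 tested members, the responsive lines were higher than the non-responsive lines in vehicle for 28 of 70 members (28.8% of all tested genes) and lower for 26 (37.1%, against 27.6% of all tested genes). Of the 34 tested collagens, 15 were higher and 11 lower in the responsive lines, with a median difference of 0.84, against 0.01 over all tested genes. Of the 8 integrin beta subunits, 1 was higher and 6 were lower, with a median of -2.23. The one that was higher was ITGB8, a partner of ITGAV, at 1.53 ± 0.33 (adjusted p 0.000534), and ITGB5 was not called in this comparison. For ITGB8 this comes from H460, at 31.3 normalised reads per kb in vehicle. H1703, at 0.313, was below HCC827 (2.82) and H441 (0.503). A member that enters the test only because 1 line expresses it had to differ between lines, so these counts describe the lines and carry no weight beyond that.

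Each line was also set against the mean of the other 3. In H460, 30 members were higher (42.9%, against 26.1% of all tested genes) and 23 lower (32.9%, against 26.2%). The largest were LAMA1, a laminin alpha chain of early embryonic basement membranes, at 9.18 ± 0.30, COL4A6 at 8.38 ± 0.27 and COL8A1, a short-chain network collagen, at 8.04 ± 0.46. LAMA1 had 3227 and 3304 normalised reads in H460 vehicle libraries, against at most 72.1 in any other vehicle library. COL4A6 had 2278 and 2491 in H460, against at most 30.3 elsewhere, and COL8A1 had 5211 and 4346, against at most 69.1 elsewhere. The lowest in H460 were ITGA3 at -5.04 ± 0.07, ITGB6 and ITGB3. ITGB6 had no reads in H460 or H1703 vehicle libraries and 105 and 128 normalised reads in HCC827, and ITGB3 had 0 and 0.787 in H460 and 153 and 139 in HCC827.

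H1703 was higher for 23 members (32.9%, against 25.4% of all tested genes) and lower for 28 of 70 (against 26.3% of all tested genes). After COL5A2, at 6.17 ± 0.15, came COL4A1, a chain of the common collagen IV, at 3.78 ± 0.43 and ITGAM, a leukocyte alpha subunit, at 3.58 ± 0.61. ITGAM had 59.4 and 54.6 normalised reads in H1703 vehicle libraries, against 0 to 7.73 in the others. LAMB3 and COL8A1 were among those furthest below the other lines.

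HCC827 was higher for 31 members (44.3%, against 25.6% of all tested genes) and lower for 15 (21.4%, against 23.1%). Median centring moved all genes by -0.19 in that comparison. Among the largest were ITGB3, a vitronectin receptor beta subunit, at 4.98 ± 0.35 and ITGB6, an epithelial partner of ITGAV, at 4.44 ± 0.39. The largest shortfalls were in COL5A2, LAMA1 (1.21 and 0 normalised reads in HCC827 vehicle) and COL26A1, at 0 in both HCC827 vehicle libraries. Reads of ITGB3 and ITGB6 are uncertain: 51.6% of the exon bases of ITGB3 and 20.6% of those of ITGB6 overlap another annotated gene on the same strand.

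H441 was higher for 22 members (31.4%, against 25.2% of all tested genes) and lower for 27 (38.6%, against 28.6%). Among the largest were LAMB3 at 5.14 ± 0.19 and ITGB2, the leukocyte beta subunit, at 4.50 ± 0.46. ITGB2 had 538 and 616 normalised reads in H441 vehicle libraries, against 151 and 189 in HCC827 and at most 11.7 in the responsive lines. Collagen IV was nearly missing: COL4A2, COL4A5 and COL4A6 had 0 reads in both H441 vehicle libraries, COL4A1 had 0 and 5.43 normalised reads, and COL4A3 and COL4A4 had 1.09 to 6.63. LAMC3, LAMA1, COL3A1 and COL5A1 were also at 0 in both H441 vehicle libraries. The 3 lowest in H441 by the fit were COL4A2, COL4A5 and LAMC3.

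With the combination the members took a larger share of all reads in 3 lines. They made up 0.791% and 0.769% of reads in H460 combination libraries, against 0.527% and 0.530% in vehicle. The shares were 0.653% and 0.685% in HCC827 with the combination, against 0.498% and 0.4804% in vehicle, and 0.628% and 0.640% in H441 with the combination, against 0.441% and 0.432% in vehicle. In H1703 they were 0.430% and 0.456% with the combination, against 0.446% and 0.438% in vehicle, and the groups overlapped. Laminins carried much of the gain in H460, with 0.336% and 0.344% of reads in combination libraries against 0.187% and 0.205% in vehicle, and in H441, with 0.351% and 0.356% against 0.243% and 0.230%. In H1703, collagens took 0.0892% and 0.0947% of reads with the combination and 0.152% and 0.146% with vehicle, while integrin beta subunits took 0.182% in both combination libraries and 0.117% and 0.115% in vehicle.

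By test, H460 had 20 members higher (28.6%, against 14.1% of all tested genes) and 4 lower (5.71%, against 12.6%), with a median change of 0.48, against 0.05 over all tested genes. H1703 had 14 of 70 higher (against 17.9% of all tested genes) and 18 lower (25.7%, against 17.6%), with a median of 0.17, against 0.08 over all tested genes. HCC827 had 7 higher (10.0%, against 4.42%) and 3 lower (4.29%, against 5.5%), with a median of 0.20, against 0. H441 had 11 higher (15.7%, against 2.77%) and 2 lower (2.86%, against 1.86%), with a median of 0.09, against 0. H460 and H441 thus had mostly rises among the members and H1703 had more falls than rises. Centring each library on its median moved all changes by -0.24 in H1703, -0.19 in H460, 0.01 in H441 and -0.03 in HCC827. On that scale the split was 19 higher and 7 lower in H460 and 10 higher and 21 lower in H1703, and the median change in H1703 was smaller than that shift. With quantile normalisation H460 had 19 higher and 8 lower and HCC827 had 9 higher and 2 lower. Shares over all tested genes were not counted under either scaling, so these splits have no background beside them. In HCC827 the 10 calls became 4 without vehicle library 2 or without combination library 2 of that line. In H441 the 13 calls became 8 without vehicle library 2, and 0 when the line was fitted from its own 4 libraries alone, so the H441 calls rest on the spread pooled over lines.

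Of the 70 tested members, 41 were called in at least 1 line and 29 in none. The share of all tested genes called in at least 1 line was not counted, so this only describes the members. ITGA2, ITGA3 and COL6A2 were among the members higher in all 4 lines, as were 0.505% of all tested genes. No member was lower in all 4 lines, against 0.384% of all tested genes. A further 3 members, ITGB1, ITGB5 and LAMB3, were higher in 3 lines, for which the share over all tested genes was likewise not counted. Calls in both directions were found for 9 members (12.9%, against 4.11% of all tested genes), and 8 of these were higher in H460 and lower in H1703.

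**Figure D2:**
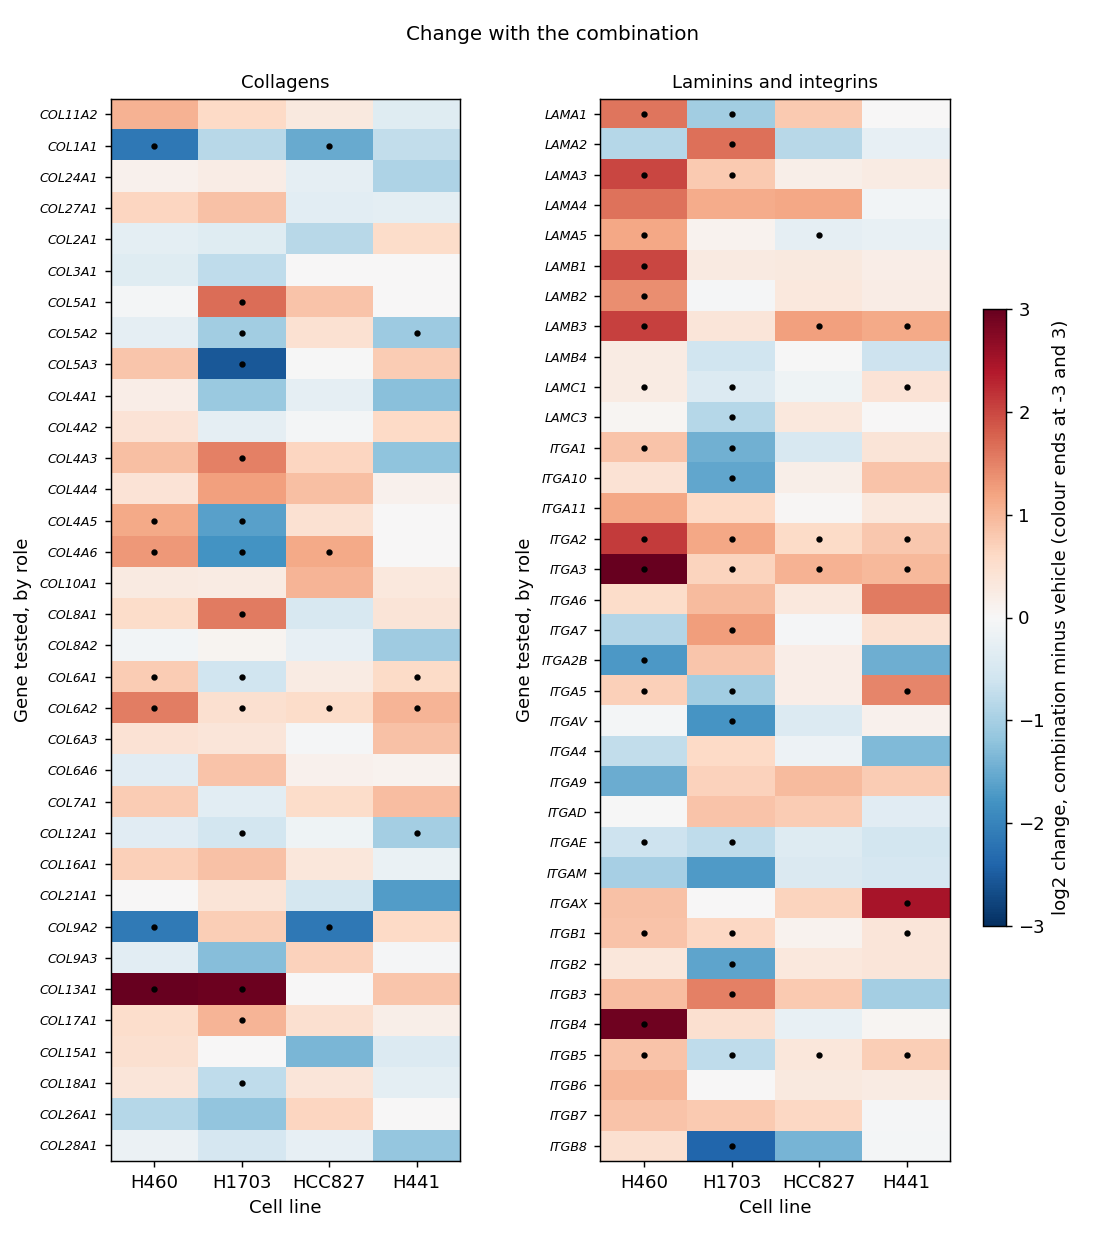
Log2 change, combination minus vehicle, of the tested members (rows, by role) in each line (columns), red for higher and blue for lower with the combination; a black dot marks an adjusted p under 0.05 in the limma fit. A member not reported here is not drawn. H460 is mostly red and H1703 holds more blue, and ITGA2, ITGA3 and COL6A2 are dotted and red in all 4 lines.

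Of the 12 laminin chains, 8 were higher in H460 (against 14.1% of all tested genes), with a median change of 1.32. By limma 0 were lower there, with 1 at an unadjusted p under 0.05 and 0 by limma voom. H1703 had 3 higher and 3 lower (against 17.9% and 17.6% of all tested genes), HCC827 had 2 higher and 1 lower (4.42% and 5.5%), and H441 had 3 higher (2.77%) and none lower. The epithelial laminin chains LAMA3 and LAMB3 both rose in H460. LAMA3 (ENSG00000053747.16, chr18:23689443-23956222 on GRCh38, plus strand) had 455 and 440.2 normalised reads with the combination, against 111 and 107 in vehicle, a change of 2.01 ± 0.10 (adjusted p 1.95e-11). LAMB3 (ENSG00000196878.15, chr1:209614870-209652466, minus strand) had 517 and 487 with the combination, against 123 and 114 in vehicle, a change of 2.06 ± 0.23 (adjusted p 2.98e-06). In each case both combination libraries lay above both vehicle libraries, yet the H460 levels stayed below the vehicle levels of HCC827 and H441.

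In the non-responsive lines, where both were already high, LAMB3 rose and LAMA3 was not called. LAMB3 had 2302 and 2366 normalised reads in HCC827 with the combination, against 1064 and 937 in vehicle (1.22 ± 0.23, adjusted p 0.00237), and 6808 and 7209.9 in H441 with the combination, against 3283 and 3135 in vehicle (1.13 ± 0.23, adjusted p 0.0087). The groups did not overlap in either line. LAMA3 changed by 0.19 ± 0.10 in HCC827 (adjusted p 0.316) and by 0.25 ± 0.10 in H441 (adjusted p 0.214). By limma voom the H441 change of LAMA3 was called (0.25, adjusted p 0.0248). In H441, LAMB3 was not called without vehicle library 2 (adjusted p 0.0657) or combination library 2 (adjusted p 0.059), with changes of 1.08 to 1.09.

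H1703 had few reads of both chains under either treatment. LAMA3 had 66.4 and 53.6 normalised reads with the combination, against 35.1 and 32.2 in vehicle, and was called higher (0.78 ± 0.10, adjusted p 4.77e-06). LAMB3 had 8.71 and 3.15 with the combination and 4.87 and 2.8 in vehicle, and was not called (adjusted p 0.253), though without combination library 2 it was (0.87, adjusted p 0.000412).

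Other laminin chains also rose in H460. LAMB1, the common beta chain, had 6467 and 6008 normalised reads with the combination, against 1439.9 and 1672 in vehicle (2.00 ± 0.11, adjusted p 5.44e-11). LAMA1 had 9009 and 11036, against 3227 and 3304 in vehicle (1.61 ± 0.37, adjusted p 0.0022). LAMB2, a beta chain of mature basement membranes, had 1352 and 1271, against 504 and 492 (1.39 ± 0.11, adjusted p 1.12e-08). In all 3 cases the combination libraries lay clear above vehicle. LAMA5, the main alpha chain of adult epithelial basement membranes, had 5283 and 5369.7, against 2219.6 and 2544 in vehicle (1.16 ± 0.07, adjusted p 2.24e-10). LAMC1 changed only by 0.24 ± 0.08 in H460 (adjusted p 0.0249), about the size of the scaling shift there, and was not called after median centring (adjusted p 0.787) or without vehicle library 1 (0.18, adjusted p 0.204) or combination library 2 (0.14, adjusted p 0.259).

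LAMB1 in H1703, with 493 and 472 against 428 and 379.7, was not called (0.26 ± 0.11, adjusted p 0.0785). It was called without H441 vehicle library 1 or 2, and with quantile normalisation (0.37, adjusted p 0.0125). In HCC827, LAMB1 changed by 0.30 and was not called (adjusted p 0.0978). There it was called by limma voom (0.30, adjusted p 0.00158) and with quantile normalisation (0.41, adjusted p 0.0228).

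The other lines differed from H460. In H1703, LAMC1 fell by 0.42 (SE 0.08, adjusted p 0.000183), with 3179 and 3638 normalised reads with the combination and 4780.0 and 4326 in vehicle. LAMC3, a gamma chain of more restricted distribution, had 201 and 218 with the combination, against 406 and 357 in vehicle (-0.85 ± 0.19, adjusted p 0.00124), and LAMA1 had 31.6 and 20.5, against 72.1 and 42.7 (-1.05 ± 0.37, adjusted p 0.0312). LAMA2, the alpha chain of muscle laminin, rose there, with 66.4 and 56.7 against 22.4 and 14.0 (1.65 ± 0.37, adjusted p 0.00132). H441 raised LAMC1, with 7333 and 7460.5 against 5588 and 5466 (0.42 ± 0.08, adjusted p 0.00244). HCC827 lowered LAMA5 slightly, with 2942 and 3105 against 3616 and 3684 (-0.27 ± 0.07, adjusted p 0.0186), a call lost when any 1 of the 4 HCC827 libraries was left out (adjusted p 0.0562 to 0.13). About 10.3% of LAMA1 exon bases overlap a gene on the other strand, with the strand setting of the authors' counting not given in the sources used here.

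Among the laminin receptors, ITGA3 (ENSG00000005884.18, chr17:50055968-50090481, plus strand) had the largest fitted change of any member after COL13A1, which has few reads. It had 1655 and 1702 normalised reads in H460 with the combination, against 111 and 123 in vehicle, a change of 3.82 ± 0.08 (adjusted p 1.65e-16). With the combination, H460 stayed just below the vehicle level of H1703. H1703 had 2778 and 3145 with the combination, against 1789 and 1939 in vehicle (0.67 ± 0.08, adjusted p 2.78e-06). HCC827 had 10398 and 11840.5, against 5432 and 5279 (1.05 ± 0.08, adjusted p 1.21e-07), and H441 had 11201 and 12847, against 6036 and 6110.1 (0.98 ± 0.08, adjusted p 1.43e-06). No combination library overlapped a vehicle library in any line.

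ITGB4 (ENSG00000132470.14, chr17:75721328-75757818, plus strand), the beta subunit of hemidesmosomes, rose in H460 and was not called elsewhere. It had 412 and 608 normalised reads in H460 with the combination, against 51.8 and 77.9 in vehicle (2.92 ± 0.19, adjusted p 5.6e-10). H1703 had 77.3 and 83.5, against 64.3 and 50.4 in vehicle, and the change of 0.48 ± 0.19 missed the threshold (adjusted p 0.0614), passing it without 1 of 5 libraries (vehicle library 1 of H1703 or any of the 4 of H460, adjusted p 0.0381 to 0.0488). Its partner ITGA6 was not called in any line. In H1703 ITGA6 had 2755 and 2809 with the combination, against 1334 and 1544 in vehicle, without overlap, and changed by 0.95 ± 0.66 (adjusted p 0.32). The wide SE goes with the H441 vehicle libraries, at 36.4 and 4.34 normalised reads: without H441 vehicle library 1 or 2 the H1703 change of 0.95 had an adjusted p of 0.00221 or 0.00281. Without H441 vehicle library 1, H441 itself was called higher for ITGA6 (2.81, adjusted p 8.15e-05). ITGA7, the laminin receptor of muscle, rose in H1703, with 15.2 and 22.9 against 5.84 and 7.01 (1.25 ± 0.34, adjusted p 0.00676).

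**Figure D3:**
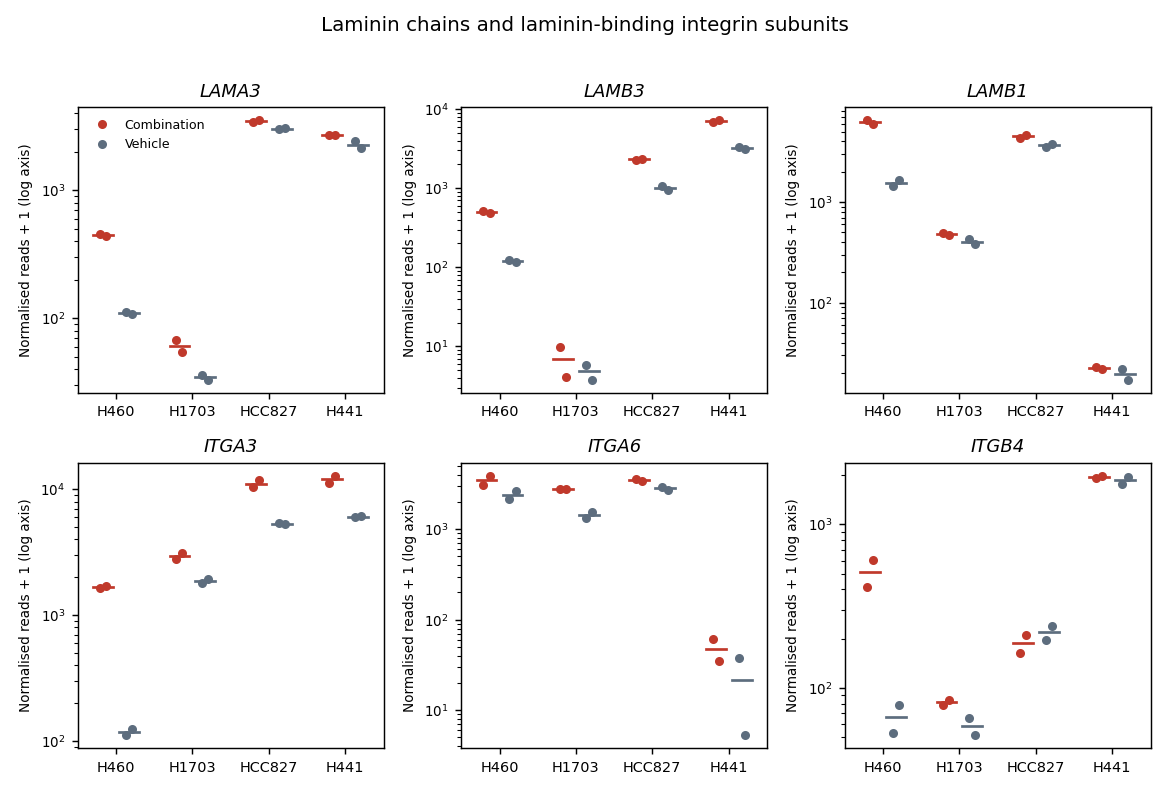
Normalised reads plus 1 (log axis) of LAMA3, LAMB3, LAMB1, ITGA3, ITGA6 and ITGB4 in each library of each line, combination left (red) and vehicle right (grey), with a bar at the mean of each group. ITGA3 in H460 stands at 1655 and 1702 with the combination, against 111 and 123 in vehicle, and LAMB1 in H460 stands at 6467 and 6008 with the combination, against 1439.9 and 1672 in vehicle.

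The collagen receptors split. ITGA2, which pairs with ITGB1, rose in every line. It had 811 and 621 normalised reads in H460 with the combination, against 175 and 153 in vehicle (2.10 ± 0.13, adjusted p 1.68e-10), and 440.0 and 390.1 in H1703, against 173 and 195 (1.16 ± 0.13, adjusted p 3.96e-07). HCC827 had 1403 and 1240.4 with the combination, against 877 and 882 in vehicle (0.58 ± 0.13, adjusted p 0.00482), and H441 had 3356 and 2828, against 1889.6 and 1631 (0.81 ± 0.13, adjusted p 0.000649). The groups did not overlap in any line. Without HCC827 combination library 1 the HCC827 change was 0.49 with an adjusted p of 0.0639. ITGA1, the other main collagen receptor, rose in H460, with 291 and 485 against 206 and 204 in vehicle (0.86 ± 0.20, adjusted p 0.00276), and fell in H1703, with 54.5 and 35.5 against 113 and 137 in vehicle (-1.44 ± 0.20, adjusted p 9.48e-06). Their partner ITGB1 rose in 3 lines, by 0.84 ± 0.06 in H460 (adjusted p 2.64e-09), 0.63 ± 0.06 in H1703 (adjusted p 1.09e-07) and 0.36 ± 0.06 in H441 (adjusted p 0.00156). In HCC827, where it was highest, ITGB1 changed by 0.11 ± 0.06 (adjusted p 0.312). ITGA10 fell in H1703 on 2 reads with the combination and 16 in vehicle.

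Among the receptor subunits for fibronectin and vitronectin, ITGAV, ITGA5 and ITGB5 fell in H1703. ITGAV (ENSG00000138448.12, chr2:186590065-186680901, plus strand) had 1052 and 1419 normalised reads there with the combination, against 3937 and 4389 in vehicle, a change of -1.76 ± 0.13 (adjusted p 6.3e-09). In H460 the groups overlapped, with 1333 and 1570.2 against 1692 and 1346 (-0.06 ± 0.13, adjusted p 0.812). HCC827 had 1754 and 1564 against 2229 and 2174 (-0.41 ± 0.13, adjusted p 0.0604), and H441 had 2215 and 2499 against 1990.1 and 2348 (0.12 ± 0.13, adjusted p 0.73). Both H1703 vehicle libraries were above every other library for ITGAV, and its combination libraries overlapped those of H460. The HCC827 change passed the threshold without 1 of the H460 vehicle or H1703 combination libraries (adjusted p 0.0265 to 0.0431).

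ITGA5, the fibronectin receptor alpha subunit, fell in H1703 and rose in H460 and H441. It had 131 and 163 normalised reads in H1703 with the combination, against 303 and 306 in vehicle (-1.05 ± 0.19, adjusted p 0.000172). H460 had 478 and 449 against 292 and 272 (0.71 ± 0.19, adjusted p 0.00725), and H441 had 142 and 102 against 55.2 and 31.5 (1.47 ± 0.19, adjusted p 0.000108). The H460 call was lost without vehicle library 2 (0.66, adjusted p 0.059). ITGB5, a partner of ITGAV, followed the same split. It had 339 and 381 in H1703 with the combination, against 622 and 606 in vehicle (-0.77 ± 0.10, adjusted p 2.91e-06), 1484 and 1769.7 against 941 and 852 in H460 (0.85 ± 0.10, adjusted p 1.12e-06), and 1549 and 1574 against 929 and 941 in H441 (0.74 ± 0.10, adjusted p 0.000147). The smaller rise in HCC827 (0.35 ± 0.10, adjusted p 0.0281) was lost without 1 of 3 HCC827 libraries: vehicle 1, vehicle 2 or combination 2 (0.27 to 0.42, adjusted p 0.0539 to 0.227).

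The remaining partners of ITGAV had few reads where they were called. ITGB8 had 0 reads in both H1703 combination libraries and 12 in vehicle, at least 3.56-fold lower when 3 reads are taken as the floor for the group. In H460, where it was highest, it had 612 and 717 normalised reads with the combination and 486 and 463 in vehicle, and was not called (adjusted p 0.522). In HCC827 its change of -1.38 ± 0.47 (adjusted p 0.0695) became a call without combination library 1 (-2.33, adjusted p 0.00331) or either H441 vehicle library (adjusted p 0.0461 and 0.0483). ITGB3 rose in H1703, with 21.8 and 19.7 against 8.77 and 3.5 (1.51 ± 0.42, adjusted p 0.00833), a call lost without combination library 1 (1.44, adjusted p 0.0573) or vehicle library 2 (1.04, adjusted p 0.134). In HCC827, where it was highest, ITGB3 had 252 and 254 with the combination and 153 and 139 in vehicle, without overlap. Its change of 0.78 there was not called (adjusted p 0.299) but was by limma voom (adjusted p 0.000487) and from the 4 HCC827 libraries alone (adjusted p 0.024). In H460, ITGB3 had 2.04 and 1.14 against 0 and 0.787 and passed the threshold only without vehicle library 2 (1.46, adjusted p 0.0315). ITGB6 was not called in any line, though without combination library 2, which had 0 reads, the H460 libraries gave 1.98 (adjusted p 0.00167).

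Subunits better known from leukocytes and platelets had few calls. ITGAE, which pairs with ITGB7 to bind E-cadherin, fell in both responsive lines: 86.7 and 111 normalised reads against 142 and 163 in H460 (-0.62 ± 0.19, adjusted p 0.02) and 59.9 and 64.6 against 105 and 109 in H1703 (-0.75 ± 0.19, adjusted p 0.00394). The H460 call was lost without combination library 1 (-0.45, adjusted p 0.173) or vehicle library 2 (-0.52, adjusted p 0.137). ITGA2B, the platelet alpha subunit, had 3.06 and 1.14 in H460 with the combination and 8.8 and 14.9 in vehicle (-1.73 ± 0.54, adjusted p 0.0216), a call lost without vehicle library 2 (-1.41, adjusted p 0.158) or combination library 2 (-1.37, adjusted p 0.156). ITGAX had 11 reads in H441 with the combination and 0 in vehicle, at least 3.20-fold higher, and was not called without any 1 of the 4 H441 libraries (adjusted p 0.102 to 0.122). ITGB2 fell in H1703, with 0 and 4.73 against 9.74 and 4.9 (-1.59 ± 0.56, adjusted p 0.0419). In H441, where it was highest, ITGB2 had 757 and 735 with the combination and 538 and 616 in vehicle, and was not called (adjusted p 0.834). ITGAM, highest in H1703, had a mean there of 2.81 normalised reads per kb with the combination and 10.0 in vehicle. It was not called in any line.

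Of 34 tested collagens, H460 had 5 higher and 2 lower (against 14.1% and 12.6% of all tested genes), H1703 had 6 higher and 7 lower (against 17.9% and 17.6% of all tested genes), and HCC827 and H441 each had 2 higher and 2 lower (against 4.42% and 5.5% of all tested genes in HCC827, 2.77% and 1.86% in H441), with medians of 0.39, 0.04, 0.07 and 0 in that order of lines. Of the 6 collagen IV chains, COL4A5 and COL4A6 were called in opposite directions in the responsive lines. COL4A5 (ENSG00000188153.13, chrX:108439844-108697545, plus strand) had 2483 and 2371 normalised reads in H460 with the combination, against 1112 and 1076 in vehicle (1.15 ± 0.17, adjusted p 2.79e-05). In H1703 it had 181 and 217 with the combination, against 688 and 559.8 in vehicle (-1.63 ± 0.17, adjusted p 1.99e-07). Its head-to-head neighbour COL4A6 (ENSG00000197565.15, chrX:108155607-108439497, minus strand) had 5768 and 6061 against 2278 and 2491 in H460 (1.31 ± 0.33, adjusted p 0.00538). In H1703 COL4A6 was nearly missing, with 3 reads with the combination and 25 in vehicle, a vehicle over combination ratio of 7.43 (95% counting interval 2.27 to 38.4). Both genes had 0 reads in all 4 H441 libraries. The H460 call for COL4A6 was lost without vehicle library 1 (1.25, adjusted p 0.0572).

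In HCC827, COL4A6 had 45.9 and 42.4 with the combination, against 30.3 and 11.1 in vehicle (1.13 ± 0.33, adjusted p 0.035). That call was lost without HCC827 combination library 1 or 2 or vehicle library 2, or any 1 of the 4 H460 libraries (adjusted p 0.0528 to 0.438, with a change of 0.50 without HCC827 vehicle library 2). COL4A5 there had 198 and 219 against 136 and 166 (0.46 ± 0.17, adjusted p 0.0964), so the groups did not overlap but no call was made.

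COL4A1 and COL4A2, which share the interval printed above, were not called in any line. COL4A1 had 279.9 and 255 normalised reads in H1703 with the combination, against 598 and 566 in vehicle, without overlap, and changed by -1.12 ± 0.53 (adjusted p 0.124). Its SE goes with the H441 vehicle libraries, at 0 and 5.43 normalised reads: without library 1 or 2 of those, the H1703 change of -1.12 had an adjusted p of 4.87e-05 or 7.88e-05. COL4A1 in H441 was then called lower without vehicle library 1 (-2.51, adjusted p 8.73e-06), on 0 and 5 reads. COL4A2 in H1703 had 465 and 439 against 559 and 525 (-0.26 ± 0.24, adjusted p 0.455). In H460 COL4A2 had 522 and 526 against 424 and 361 (0.42 ± 0.24, adjusted p 0.237), and was called without H441 combination library 1 or 2 (adjusted p 0.0336 or 0.0306). In H441, where COL4A2 had 1.01 and 0 with the combination and 0 in vehicle, it was called, on 1 read, without combination library 2 (1.19, adjusted p 0.00106).

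COL4A3 and COL4A4, chains of the kidney and lung alveolar basement membrane, were low outside H460. COL4A3 rose in H1703, with 24.0 and 11.8 against 3.9 and 4.9 (1.51 ± 0.50, adjusted p 0.0233), and the call was lost without combination library 1 (1.07, adjusted p 0.23), vehicle library 1 (1.40, adjusted p 0.113) or vehicle library 2 (1.62, adjusted p 0.0659). In H441 the change of -1.22 ± 0.50 (adjusted p 0.198) was called without combination library 1 (-2.04, adjusted p 0.0456). In H460, COL4A3 changed by 0.90 and was not called (adjusted p 0.213), but was by limma voom (0.91, adjusted p 0.00188). COL4A4 was not called in any line by the main fit, though limma voom called it higher in H1703 (1.33, adjusted p 0.0108).

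**Figure D4:**
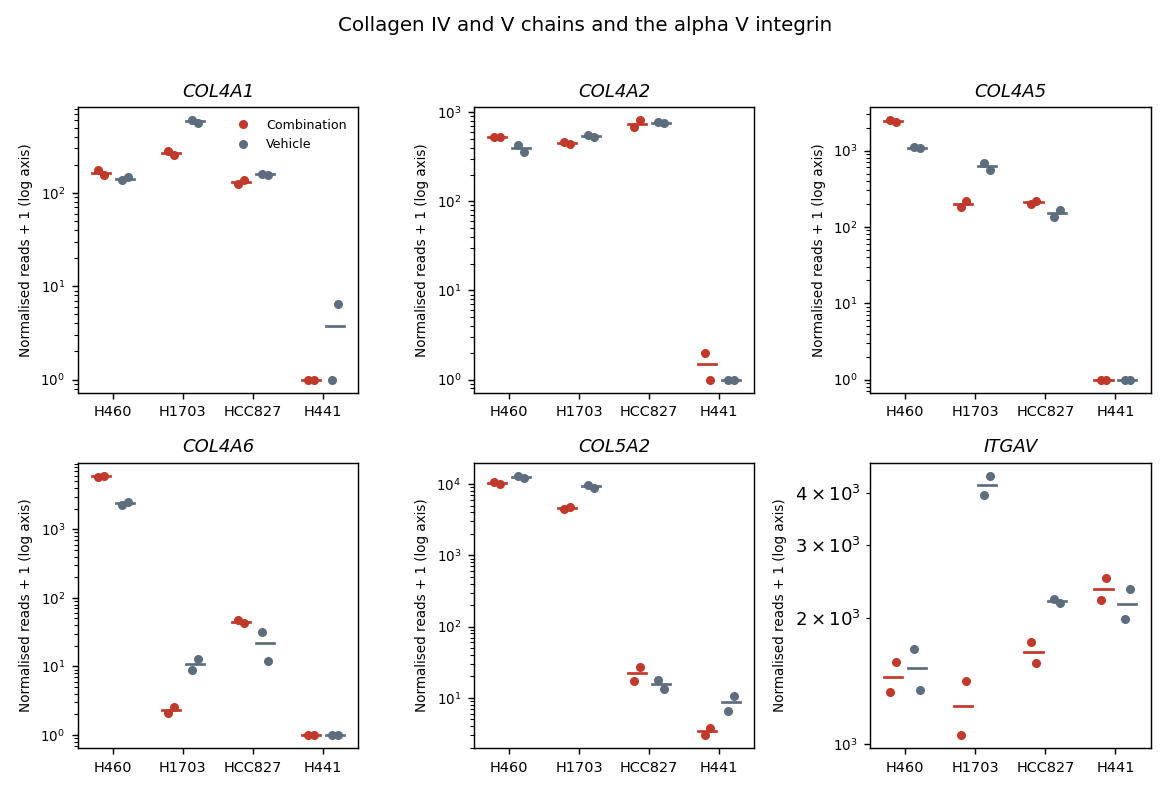
Normalised reads plus 1 (log axis) of COL4A1, COL4A2, COL4A5, COL4A6, COL5A2 and ITGAV in each library of each line, combination left (red) and vehicle right (grey), with a bar at the mean of each group. COL4A5 and COL4A6 lie above vehicle in H460 and below it in H1703, and ITGAV and COL5A2 are below vehicle in H1703.

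Among the fibrillar collagens, COL5A2 fell in H1703, with 4436 and 4692 normalised reads with the combination, against 9733 and 8954 in vehicle (-1.03 ± 0.19, adjusted p 0.000184). H460, with 10804 and 10138 against 13097 and 12282, was not called (-0.28 ± 0.19, adjusted p 0.321). In H441 it fell from a low base, with 2.01 and 2.72 against 5.52 and 9.77 (-1.08 ± 0.19, adjusted p 0.00167), and limma voom on the recovered reads gave an adjusted p of 0.352. The other chains of collagen V differed in H1703: COL5A1 rose, with 107 and 81.2 against 28.2 and 26.6 (1.67 ± 0.29, adjusted p 0.000108), and COL5A3 fell, on 3 reads with the combination and 46 in vehicle, a vehicle over combination ratio of 13.7 (95% counting interval 4.39 to 68.7). The COL5A3 call was lost without vehicle library 2 (-2.40, adjusted p 0.0635) or combination library 2 (-2.21, adjusted p 0.0758).

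COL1A1, a chain of the main collagen of connective tissue, was low in all lines and fell in 2. It had 11.2 and 11.4 normalised reads in H460 with the combination, against 60.6 and 57.4 in vehicle (-2.15 ± 0.45, adjusted p 0.00114). HCC827 had 16.5 and 27.7 against 63.0 and 68.9 (-1.51 ± 0.45, adjusted p 0.0389), and that call was lost in 10 of 16 fits without 1 library, namely those without any of the 4 HCC827 or the 4 H441 libraries or either H460 vehicle library (-1.18 to -1.84, adjusted p 0.051 to 0.24). H441 had 75.6 and 65.4 against 105 and 133 (-0.73 ± 0.45, adjusted p 0.456). In H1703 it had 3.27 and 0 against 1.95 and 3.5 (-0.84 ± 0.45, adjusted p 0.168), and without combination library 1 it was called (-1.86, adjusted p 0.00107). COL3A1 was detected in H460, with 58.1 and 74.1 against 96.8 and 74.7, at up to 5.84 normalised reads in H1703 and at 0 in HCC827 and H441, and was not called.

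Collagen VI forms beaded filaments, and 2 of its 4 tested chains were called. COL6A2 rose in every line: 107 and 98.1 against 35.2 and 32.3 in H460 (1.53 ± 0.13, adjusted p 2.73e-08), 963 and 1031 against 756 and 677 in H1703 (0.48 ± 0.13, adjusted p 0.0081), 153 and 194 against 127 and 107 in HCC827 (0.55 ± 0.13, adjusted p 0.011) and 734 and 775 against 358 and 381 in H441 (1.03 ± 0.13, adjusted p 0.000119). No groups overlapped. The H1703 call was lost after median centring (adjusted p 0.217) and without vehicle library 2 (0.40, adjusted p 0.0931) or combination library 2 (0.43, adjusted p 0.0696), and the HCC827 call without vehicle library 2 (0.43, adjusted p 0.134) or combination library 2 (0.38, adjusted p 0.19). COL6A1 rose in H460 (0.76 ± 0.16, adjusted p 0.00142) and H441 (0.58 ± 0.16, adjusted p 0.0477) and fell in H1703 (-0.59 ± 0.16, adjusted p 0.00751), there with 11.98 and 14.2 against 18.5 and 23.8. The H441 call was lost in 8 fits, those without any of its own 4 libraries or either vehicle library of H460 or HCC827 (0.42 to 0.75, adjusted p 0.0522 to 0.342), and the H1703 call without combination library 1 (-0.49, adjusted p 0.0751) or vehicle library 2 (-0.43, adjusted p 0.109). COL6A3 and COL6A6 were not called in any line.

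Collagens tied to epithelial attachment had few calls. COL17A1, the transmembrane collagen of hemidesmosomes, rose in H1703, with 19.6 and 15.8 against 7.79 and 7.01 (1.02 ± 0.35, adjusted p 0.0268), and was not called without any 1 of the 4 H1703 libraries (adjusted p 0.0524 to 0.153). COL7A1, which makes anchoring fibrils, was not called in any line, though without combination library 2 H460 gave 1.37 (adjusted p 0.0114). The transmembrane COL13A1 had the largest fitted change, on few reads. It had 51.0 and 43.3 normalised reads in H460 with the combination, against 1.96 and 0 in vehicle, which is 88 and 2 reads and a ratio of 54.3 (95% counting interval 14.6 to 456). In H1703 it had 18 reads with the combination and 0 in vehicle, at least 6.73-fold higher. HCC827 had 32.9 and 30.4 normalised reads with the combination, against 32.7 and 30.4 in vehicle, and was not called.

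Several other collagens fell or rose in 1 or 2 lines. COL9A2, a cartilage collagen carried on the surface of fibrils, had 2 reads in H460 with the combination and 29 in vehicle, a vehicle over combination ratio of 11.7 (95% counting interval 2.97 to 102), and 2.35 and 2.77 normalised reads in HCC827 with the combination, against 23.0 and 16.2 in vehicle (-2.15 ± 0.57, adjusted p 0.0194). The H460 call was lost without vehicle library 1 (-1.44, adjusted p 0.156) and the HCC827 call without any 1 of the 4 HCC827 libraries (adjusted p 0.0607 to 0.149). COL12A1, which also coats fibrils, fell in H441, with 69.5 and 59.9 against 109 and 164 (-1.02 ± 0.20, adjusted p 0.00449), a call lost without vehicle library 2 (-0.74, adjusted p 0.11) or combination library 2 (-0.92, adjusted p 0.0599), and in H1703, with 498 and 572 against 696 and 882 (-0.55 ± 0.20, adjusted p 0.0372). COL18A1, the basement membrane collagen that yields endostatin, fell in H1703, with 717 and 721 against 1176 and 1255 (-0.75 ± 0.15, adjusted p 0.000343), and 16.4% of its exon bases overlap SLC19A1 on the other strand. COL8A1 was called higher in H1703 on 8.71 and 4.73 against 0 and 4.2 (1.57 ± 0.56, adjusted p 0.0496).

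The mean change of the responsive lines was set beside that of the non-responsive lines. Over H460 and H1703, 17 members were higher (24.3%, against 20.6% of all tested genes) and 8 lower (11.4%, against 17.9%), with a median of 0.21, against 0.10. Over HCC827 and H441, 12 were higher (17.1%, against 6.25%) and 4 lower (5.71%, against 6.05%), with a median of 0.21, against 0. The responsive count was 15 higher and 15 lower after median centring, which moved all changes there by -0.22, and 15 higher and 12 lower with quantile normalisation. Shares over all tested genes were not counted on those scales. The non-responsive total of 16 became 10 without H441 vehicle library 2.

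The difference between the classes, responsive minus non-responsive, passed for 17 members: 11 higher (15.7%, against 11.2% of all tested genes) and 6 lower (8.57%, against 12.1%). After median centring, which shifted this difference by -0.21, the split was 8 higher and 11 lower, with no share over all tested genes counted on that scale. ITGB4 changed more in the responsive lines, by 1.70 ± 0.14 against -0.08 ± 0.14, a difference of 1.78 ± 0.19 (adjusted p 9.86e-07), with a call in H460 and none in H1703. COL13A1 (3.23 ± 0.57, adjusted p 0.000278), ITGA3 (1.23 ± 0.08, adjusted p 3e-09) and LAMA3 (1.18 ± 0.10, adjusted p 6.52e-08) also changed more in the responsive lines, each called higher in both of them. For ITGA3 this comes from H460 (3.82), since its change in H1703 (0.67) was below those in HCC827 (1.05) and H441 (0.98). ITGAV changed by -0.91 ± 0.09 in the responsive and -0.14 ± 0.09 in the non-responsive lines (difference -0.77 ± 0.13, adjusted p 0.000285), ITGA5 by -0.17 ± 0.13 and 0.84 ± 0.13 (difference -1.01 ± 0.19, adjusted p 0.00049) and ITGB5 by 0.04 ± 0.07 and 0.54 ± 0.07 (difference -0.50 ± 0.10, adjusted p 0.000729). For ITGAV the responsive mean comes from H1703, since ITGAV was not called in H460 or in either non-responsive line. For ITGA5 and ITGB5 the responsive mean hides a rise in H460 and a fall in H1703. Differences of COL4A3 (1.495 ± 0.50, adjusted p 0.036), ITGB3 (1.33 ± 0.42, adjusted p 0.0273) and LAMC3 (-0.56 ± 0.19, adjusted p 0.0369) passed the threshold too. They were lost in 11, 9 and 11 of 16 fits without 1 library, with values of 1.08 to 1.55, 1.06 to 1.36 and -0.51 to -0.61. In H441, COL4A3 had 2 reads with the combination and 6 in vehicle, and ITGB3 had 2 and 7. ITGB3 in H460 had 3 reads with the combination and 1 in vehicle.

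Because the means hid opposite changes, H460 and H1703 were compared directly, a contrast chosen after the data had been seen. The change in H460 exceeded that in H1703 for 22 members (31.4%, against 11.3% of all tested genes) and was below it for 5 (7.14%, against 7.8%), with a median difference of 0.53, against -0.01. Laminins gave 8 higher and 1 lower of 12, integrin beta subunits 3 and 0 of 8, integrin alpha subunits 5 and 2 of 16, and collagens 6 and 2 of 34. By the calls within each line, 8 members were higher in H460 and lower in H1703: COL4A5, COL4A6, COL6A1, LAMA1, LAMC1, ITGA1, ITGA5 and ITGB5. Over all tested genes that held for 1.69%. The LAMC1 call in H460 was lost after median centring or quantile normalisation (adjusted p 0.787 and 0.844). The COL6A1 call in H1703 was lost with limma voom (adjusted p 0.246) and when H1703 was fitted from its own libraries alone (adjusted p 0.124). A further 7 members were higher in both lines (against 6.48% of all tested genes), 1 was lower in both (8.03%), and none was lower in H460 and higher in H1703 (0.738%).

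Of those 8, COL4A6 differed by 3.10 ± 0.47 (adjusted p 7.85e-05) and COL4A5 by 2.78 ± 0.24 (adjusted p 8.48e-08). LAMA1 differed by 2.66 ± 0.52 (adjusted p 0.000933), ITGA1 by 2.31 ± 0.29 (adjusted p 7.8e-06) and ITGA5 by 1.76 ± 0.27 (adjusted p 7.52e-05). ITGA3 rose in both lines but more in H460, by 3.15 ± 0.12 (adjusted p 1.37e-12), and ITGAV fell in H1703 alone, a difference of 1.70 ± 0.19 (adjusted p 3.46e-06). COL5A3 (3.36 ± 1.01, adjusted p 0.0239) and ITGB8 (2.85 ± 0.66, adjusted p 0.00413) rest on few reads in H1703. On the other side were COL9A2 (-2.87 ± 0.81, adjusted p 0.016), ITGA2B (-2.55 ± 0.77, adjusted p 0.023), LAMA2 (-2.49 ± 0.52, adjusted p 0.00166) and ITGA7 (-2.12 ± 0.48, adjusted p 0.00348), all with at most 66.4 normalised reads in every library of these lines. COL5A3 was lost without vehicle 1, vehicle 2 or combination 1 of H460 or vehicle 1, vehicle 2 or combination 2 of H1703 (2.53 to 3.49, adjusted p 0.0584 to 0.117). COL9A2 was lost without H460 vehicle library 1 (-2.17, adjusted p 0.104) or H1703 combination library 2 (-2.13, adjusted p 0.097), and ITGA2B without H1703 vehicle 1 or combination 1 or H460 vehicle 2 or combination 2 (-2.09 to -2.44, adjusted p 0.0798 to 0.115).

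**Figure D5:**
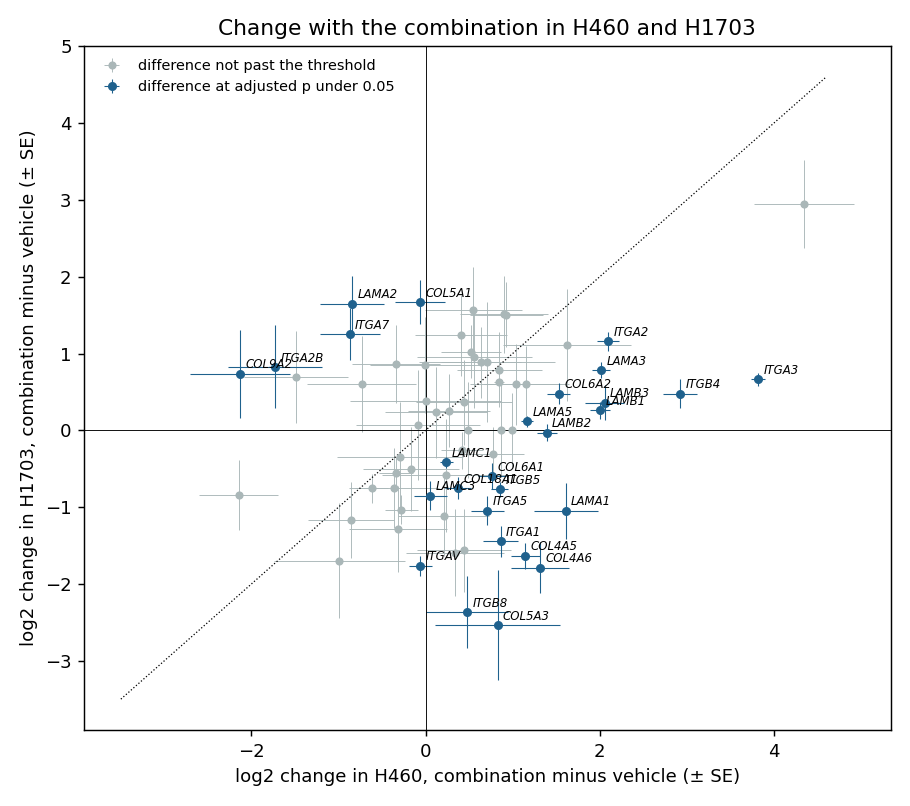
Log2 change with the combination in H460 (x) against H1703 (y) for the tested members drawn in the map of changes by line, with SE bars; blue marks members whose 2 changes differ at an adjusted p under 0.05 and the dotted line marks equal change. Most blue points lie below the line, 22 with a larger change in H460 and 5 with a larger change in H1703, and COL4A5, COL4A6, LAMA1, ITGA1 and ITGA5 lie right of 0 in H460 and below 0 in H1703.

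HCC827 and H441 were compared in the same way, also after the data had been seen. The change in HCC827 exceeded that in H441 for 1 member (1.43%, against 0.697% of all tested genes) and was below it for 2 (2.86%, against 1.31%), with a median difference of 0.08, against 0. The member above was COL5A2 (1.54 ± 0.27, adjusted p 0.00335), which has few reads in both lines, and it was lost with limma voom (2.04, adjusted p 0.317) and without the trend and robust settings (adjusted p 0.101). Those below were ITGA5 (-1.26 ± 0.27, adjusted p 0.0145) and LAMC1 (-0.54 ± 0.11, adjusted p 0.00938), both of which rose in H441 and were not called in HCC827. ITGA5 was lost without vehicle library 1 or 2 or combination library 2 of HCC827 or combination library 1 or vehicle library 2 of H441 (-0.88 to -1.29, adjusted p 0.0502 to 0.0877). LAMC1 was lost without HCC827 vehicle library 1 (-0.48, adjusted p 0.0726) or H441 vehicle library 2 (-0.53, adjusted p 0.0524). The count of 3 became 1 without HCC827 vehicle library 1 or H441 vehicle library 2 and 5 without H441 vehicle library 1.

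The genes that fold, cross-link and bind these proteins were read beside them. Over all tested genes, 14.1% were higher and 12.6% lower in H460, 17.9% and 17.6% in H1703, 4.42% and 5.5% in HCC827 and 2.77% and 1.86% in H441. Of 28 tested genes for collagen folding, modification and processing, 9 were higher and 2 lower in H460, 3 higher and 14 lower in H1703, and 5 higher and 1 lower in both HCC827 and H441, with medians of 0.20, -0.36, 0.22 and 0.11 in that order of lines. P3H2, a prolyl 3-hydroxylase of collagen IV, had 791 and 842 normalised reads in H1703 with the combination, against 3276 and 2769 in vehicle (-1.88 ± 0.21, adjusted p 3.54e-06), and also fell in HCC827 (-0.95 ± 0.21, adjusted p 0.00947) and H441 (-0.90 ± 0.21, adjusted p 0.0257). ADAMTS3, a procollagen N-propeptidase, fell in both responsive lines, with 4.08 and 3.42 against 29.3 and 24.4 in H460 and 3.27 and 5.52 against 36.0 and 18.2 in H1703. PCOLCE, which enhances procollagen C-processing, rose over the responsive lines (0.95 ± 0.23, adjusted p 0.00227), and P3H1, the main prolyl 3-hydroxylase of fibrillar collagens, rose over the non-responsive lines (0.45 ± 0.10, adjusted p 0.00446).

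Of 16 tested basement membrane and matrix partners, 10 were higher and 0 lower in H460 by limma (median 1.14, with 0 lower at an unadjusted p under 0.05 and 1 by limma voom), 5 were higher and 5 lower in H1703 (median 0.02), 1 higher and 1 lower in HCC827 (median -0.04) and 5 higher and none lower in H441 (median 0.23). NID1, the linker between laminin and collagen IV, had 2296 and 2286 normalised reads in H1703 with the combination, against 5326 and 4721 in vehicle (-1.13 ± 0.31, adjusted p 0.00626), and rose in H441 on 17.1 and 9.99 against 2.21 and 4.34 (1.499 ± 0.31, adjusted p 0.00611). THBS1, a matrix glycoprotein that binds integrins and CD47, fell in H1703, with 42.5 and 35.5 against 182 and 168 (-2.10 ± 0.17, adjusted p 7.84e-09), and in HCC827, with 1198 and 1155 against 2678 and 1985 (-0.97 ± 0.17, adjusted p 0.000961). TNC, the largest rise over the responsive lines, had at most 4.36 normalised reads there with the combination and 0 in vehicle, while the HCC827 and H441 libraries of both treatments lay between 1191 and 4043.

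Of 25 tested integrin adaptors and adhesion signalling genes, 13 were higher and 2 lower in H460 (median 0.41), 5 higher and 7 lower in H1703 (median -0.12), 5 higher and 2 lower in HCC827 (median 0.03) and 3 higher and 2 lower in H441 (median 0.08). TNS3, a tensin that links integrin tails to actin, fell in 3 lines. It had 672 and 635 normalised reads in H460 with the combination, against 1486 and 1550.4 in vehicle (-1.21 ± 0.08, adjusted p 9.46e-10), 1586 and 1741 against 4453 and 4432 in H1703 (-1.42 ± 0.08, adjusted p 7.25e-11) and 1990.4 and 1874 against 3066 and 3297 in HCC827 (-0.72 ± 0.08, adjusted p 1e-05). Its relative TNS4 rose in H460, with 132 and 61.6 against 2.93 and 3.15 (4.09 ± 0.45, adjusted p 5.93e-07), the same line in which ITGB4 and ITGA3 rose most. PTK2B, a focal adhesion kinase relative, rose in H1703 (1.44 ± 0.19, adjusted p 4.41e-06) and HCC827 (0.71 ± 0.19, adjusted p 0.0207).

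Of 10 other matrix receptors tested, 5 were higher and 2 lower in H460 (median 0.23), 1 higher and 5 lower in H1703 (median -0.52), and none was called in HCC827 or H441 by limma. At an unadjusted p under 0.05, 2 were higher in HCC827 and 1 was lower in H441, and limma voom on the recovered reads called the same numbers. DDR2, a collagen receptor tyrosine kinase, rose in both responsive lines, with 16.3 and 39.9 against 5.87 and 6.29 in H460 (1.72 ± 0.44, adjusted p 0.00544) and 101 and 96.1 against 32.1 and 35.0 in H1703 (1.48 ± 0.44, adjusted p 0.0117). SDC1, a heparan sulfate proteoglycan of epithelial cells, fell in both, with 416 and 323 against 685 and 647 in H460 (-0.86 ± 0.12, adjusted p 9.81e-06) and 161 and 162 against 405 and 453 in H1703 (-1.39 ± 0.12, adjusted p 9.85e-09). All 4 lists held more falls in H1703 than in H460, as did all tested genes, of which 17.6% fell in H1703 and 12.6% in H460.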

How the data were processed

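The authors deposited 1 table of variance-stabilised log2 values for 28951 genes in 16 libraries. Per the submitters' processing notes, Trimmomatic, STAR, featureCounts and GRCh38 (hg38) were used, and versions and the strand setting of the counting are not given in the sources used here. Inverting the transform turned those log2 values back into reads: 100.0% of values came out whole within 0.02, giving 8493271 to 13604150 reads per library. Symbols, exons and coordinates came from GENCODE 29, which matched 28846 gene IDs.

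The deposited values were fitted with limma 3.58.1 (R 4.3.3, trend and robust settings) over all 8 groups, with 8 residual degrees of freedom. The fit kept the 23968 genes whose mean was at least 1 above the lowest value. Benjamini-Hochberg adjustment ran over all of them. A member that passed only through the group where it is high had to differ. The comparisons between H460 and H1703 and between HCC827 and H441 were added after seeing the data. Results of 1 member are not reported here, and counts over the members include it. Members and lists were chosen with earlier results of these data known.

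Named members were a fixed list of common chains and subunits, the 4 largest rises and falls past the threshold per line and per difference of responses, and in vehicle the 3 highest per kb and the 3 largest differences each way per line. From each pathway list the largest rise and fall past the threshold over each class of lines were named. For genes at 0 reads in a group, folds are bounds that take 3 reads as the floor for the group; with 1 to 3 reads a ratio with its 95% interval is given. These cover counting error only. The fit was tested on simulated data before use. Alternatives were median centring, quantile normalisation, other filters, limma without trend and robust settings, limma voom, a replicate block, 1 line alone and each library left out. Tables were made with pandas 2.3.3 and numpy 2.4.6 in Python 3.11.15, and figures with matplotlib 3.10.9.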

Additional observations from a re-analysis of the deposited data

Results flagged for a closer look

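The results here stand out because the change with the combination differed between groups of lines in a direct test of the difference, within the limma fit over all tested genes. No explanation was weighed. Between the responsive and the non-responsive lines, the change was larger in the responsive lines for COL13A1 by 3.23 (adjusted p 0.000278), ITGB4 by 1.78 (adjusted p 9.86e-07), COL4A3 by 1.495 (adjusted p 0.036) and ITGB3 by 1.33 (adjusted p 0.0273), on the log2 scale. The same difference was -1.01 for ITGA5 (adjusted p 0.00049), -0.77 for ITGAV (adjusted p 0.000285), -0.56 for LAMC3 (adjusted p 0.0369) and -0.50 for ITGB5 (adjusted p 0.000729). COL4A3 and ITGB3 were not called after median centring (adjusted p 0.0640 and 0.0583), and LAMC3 was not called by limma voom (adjusted p 0.582). Few reads enter 2 of these differences: in H441, COL4A3 had 2 reads with the combination and 6 in vehicle, and ITGB3 had 2 and 7. ITGB3 in H460 had 3 reads with the combination and 1 in vehicle. Within lines, ITGB4 was called in H460 alone and ITGAV in H1703 alone.

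Between H460 and H1703, the change in H460 exceeded that in H1703 by 3.36 for COL5A3 (adjusted p 0.0239), 3.15 for ITGA3 (adjusted p 1.37e-12), 3.10 for COL4A6 (adjusted p 7.85e-05) and 2.85 for ITGB8 (adjusted p 0.00413). It was below that in H1703, with differences of -2.87 for COL9A2 (adjusted p 0.016), -2.55 for ITGA2B (adjusted p 0.023), -2.49 for LAMA2 (adjusted p 0.00166) and -2.12 for ITGA7 (adjusted p 0.00348). Between HCC827 and H441, the differences were 1.54 for COL5A2 (adjusted p 0.00335), -1.26 for ITGA5 (adjusted p 0.0145) and -0.54 for LAMC1 (adjusted p 0.00938). Both comparisons of lines were chosen after the data had been seen. COL5A3 and ITGB8 rest on few reads in H1703, and COL9A2 and ITGA2B have few reads in both H460 and H1703. COL5A2 was not called by limma voom (adjusted p 0.317). Without the trend and robust settings, ITGA5 and LAMC1 were not called (adjusted p 0.154 and 0.207).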

How the results depend on the processing

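Of 321 counts of called members under an alternative, 308 stayed within 1.5 times the reported count and 13 did not. Without the trend and robust settings, HCC827 had 4 calls, H441 had 7, the non-responsive lines had 10 and the difference between HCC827 and H441 had 0. That last count was 5 with limma voom, and H441 had 0 calls from its own 4 libraries alone. With each library left out, the counts ran from 21 to 25 in H460, 23 to 35 in H1703, 4 to 11 in HCC827, 8 to 13 in H441, 21 to 29 over the responsive and 10 to 18 over the non-responsive lines. They ran from 12 to 18 for the class difference, 24 to 29 for H460 against H1703 and 1 to 5 for HCC827 against H441. In vehicle they ran from 52 to 56 between classes, 44 to 54 for H460, 44 to 52 for H1703, 38 to 46 for HCC827 and 46 to 50 for H441. The causes were not tested.

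With the replicate number as a block, the counts were 26 in H460, 38 in H1703, 11 in HCC827, 14 in H441, 30 over the responsive and 19 over the non-responsive lines, 16 for the class difference, 28 for H460 against H1703 and 3 for HCC827 against H441. Deviations of same-numbered libraries of a line correlated at 0.0136 to 0.0319 over the tested genes. The labels do not say whether same-numbered libraries share a culture or a day, and this correlation cannot decide it. Of 108 named changes that were called, 65 were kept in every alternative run, 43 were lost in at least 1 and 0 reversed, and 26 that were not called were called in at least 1. The depth limits genes with few reads, and with 2 libraries per group a call rests on the spread pooled over lines.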
